A study of Mus musculus with 18 samples.

Results

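Integrins are the receptors through which cells hold on to the extracellular matrix. The transcripts of 10 integrin subunit genes were followed here in 2 mouse cancer lines grown as spheroids with or without fibroblasts: the alpha subunits Itga1, Itga2, Itga3, Itga5, Itga6 and Itgav and the beta subunits Itgb1, Itgb3, Itgb4 and Itgb5. They were picked by gene symbol, ignoring case, and all 10 were found in both count tables, which list 24455 genes for 168FARN and 24532 genes for LLC1. The other 17 integrin subunit genes of the mouse were kept as a comparison list. All 10 genes passed the filter on low counts in each line, but Itga2 in 168FARN and Itgb3 in LLC1 passed it only through the libraries from cocultures with WT fibroblasts. Itgb4 in LLC1 would not have passed without the libraries of cells grown alone.

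Of the lines, 168FARN comes from mouse breast cancer, and LLC1 is the Lewis lung carcinoma line of the mouse. Each was cultured in hanging drops and then for a week on a shaker, either alone, with WT fibroblasts (control guide sgNS) or with sgPrrx1 fibroblasts, in which CRISPR/Cas9 had removed Prrx1, a homeobox transcription factor gene. The 168FARN spheroids received MMTV-CAF, the cancer-associated fibroblasts of mammary tumours from MMTV-PyMT mice, and the LLC1 spheroids received wound healing fibroblasts taken from dorsal wounds on day 10. There were 3 fibroblasts per cancer cell, 3 libraries per group and 18 libraries in all. The cancer cell line and the kind of fibroblast changed together, so their parts in a difference between the lines cannot be told apart. According to the methods, the GFP-tagged cancer cells were sorted after trypsin treatment, whereas 1 sentence of the results text also calls the fibroblasts GFP-expressing, so whether these carried GFP as well is not settled. Only the fibroblasts lacked Prrx1, and therefore no gene in these libraries checks the genotype labels. Nothing states that the 3 libraries of a group came from separate cultures, so the p-values measure the spread between these libraries, which may be technical.

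The libraries held 48315037 to 68933002 counts in 168FARN and 66129117 to 103997557 counts in LLC1. The third sgPrrx1 library of LLC1 stood apart from the other two of its group. Over 9866 genes, the log2 difference between it and the mean of the other two had a Spearman correlation of 0.56 with transcript GC content and -0.70 with transcript length, against 0.01 and -0.02 for the difference between the first and the second library. LLC1 results are therefore given with and without this library. The 12 fibroblast marker genes of a fixed list summed to 122 to 127 CPM (counts scaled to the library total times its TMM factor) in 168FARN alone, 804 to 875 CPM with WT fibroblasts and 219 to 228 CPM with sgPrrx1 fibroblasts. In LLC1 the same sum was 1652 to 1731, 1200 to 1223 and 1524 to 1595 CPM, and most of it was Col3a1. Fap, a surface protease of activated fibroblasts, had at most 4 counts in any library, whereas Thy1, another fibroblast surface marker, had 29, 34 and 27 counts in 168FARN with WT fibroblasts and none in 168FARN alone or with sgPrrx1 fibroblasts. Epithelial markers summed to 323 to 422 CPM in 168FARN but to no more than 0.702 CPM in LLC1, so the epithelial identity of LLC1 was not visible in these markers. Of the 7 epithelial genes, 4 had counts in 168FARN alone, where Epcam, Krt5 and Krt19 had none. With WT fibroblasts 5 had counts and with sgPrrx1 fibroblasts 4. Endothelial markers ranged from 3.47 to 8.88 CPM in 168FARN and from 0.175 to 6.73 CPM in LLC1, with the LLC1 libraries from WT cocultures highest. Leukocyte markers ranged from 30.4 to 53.5 CPM in 168FARN and from 16.1 to 64.9 CPM in LLC1, with no more than 3 counts of Ptprc, the pan-leukocyte antigen, in any library.

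An integrin is a heterodimer of 1 alpha and 1 beta chain. The beta chain links through talin and kindlin to actin, and the pair decides which matrix protein is held. The β1 chain, encoded by Itgb1, joins many alpha chains. With α5 it forms the main fibronectin receptor, with α3 and α6 laminin receptors, and with α1 and α2 collagen receptors. The αv chain pairs with β3, β5 and other beta chains to bind vitronectin and further ligands that carry an RGD motif. The β4 chain pairs with α6 alone and binds plectin in hemidesmosomes, the junctions that fasten epithelial cells to the basement membrane. In tumours integrins are known for their part in adhesion, migration and invasion.

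Sequences upstream of the start site (RefSeq, build GRCm38.p6) were at hand for 7 of the 10 genes, with 2 starts for Itga3. Itga6, Itgb3 and Itgb4 are named only. Of these, 4 are shown: Itga5, Itgb1 and Itgb5, which in 168FARN were all higher with WT fibroblasts than alone and lower with sgPrrx1 than with WT fibroblasts, and Itga2, whose counts in 168FARN came from 1 group only. Each run is the 250 bases before the start, 5′ to 3′ on the strand of the gene. Capitals mark GGGCGG, the GC box bound by Sp factors, read on either strand (CCGCCC), and in Itgb1 also GGAATG, a core bound by TEAD factors.
Itga5, chr15:103366792-103367041, minus strand: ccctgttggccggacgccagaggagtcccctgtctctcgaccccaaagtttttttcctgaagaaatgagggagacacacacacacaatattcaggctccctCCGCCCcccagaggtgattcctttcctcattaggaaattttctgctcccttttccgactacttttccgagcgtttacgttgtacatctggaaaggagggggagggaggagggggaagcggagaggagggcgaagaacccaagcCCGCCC
Itgb1, chr8:128685404-128685653, plus strand: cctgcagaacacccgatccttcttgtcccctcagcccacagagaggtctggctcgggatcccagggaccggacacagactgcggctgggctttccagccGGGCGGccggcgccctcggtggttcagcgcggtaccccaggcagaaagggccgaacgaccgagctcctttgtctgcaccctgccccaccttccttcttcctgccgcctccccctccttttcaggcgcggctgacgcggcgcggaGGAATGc
Itgb5, chr16:33829415-33829664, plus strand: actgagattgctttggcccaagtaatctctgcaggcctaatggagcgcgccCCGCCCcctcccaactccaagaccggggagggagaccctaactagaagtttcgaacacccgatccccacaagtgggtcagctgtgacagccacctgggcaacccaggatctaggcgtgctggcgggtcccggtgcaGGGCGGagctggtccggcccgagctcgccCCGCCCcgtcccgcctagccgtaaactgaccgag
Itga2, chr13:114932101-114932350, minus strand: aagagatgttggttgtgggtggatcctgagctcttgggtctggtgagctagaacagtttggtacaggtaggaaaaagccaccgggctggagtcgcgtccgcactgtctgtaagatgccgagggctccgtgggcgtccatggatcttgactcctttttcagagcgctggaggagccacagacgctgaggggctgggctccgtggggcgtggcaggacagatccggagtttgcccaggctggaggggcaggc
Itga5 held 2 GC boxes, Itgb5 held 3, and Itgb1 held 1 together with 1 GGAATG, with no overlap between the 2 motifs. Itga2 held neither. Of 32851 promoter windows of the same length, 32.7% held a GC box and 12.6% held GGAATG on either strand. Among the windows not shown, that of the upstream start of Itga3 held 3 GC boxes and that of its downstream start 1, while those of Itga1 and Itgav held none. The letters TGANTCA, an AP-1 site present in 6.75% of all windows, and TAATTA, a homeobox core present in 4.84%, were in none of the windows of these 7 genes. A match is a run of letters and not a bound site.

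Itgb1 was the most abundant of the 10 transcripts in every group of both lines. On a scale that allows genes to be compared (CPM per kilobase of exon), Itgb1 (chr8:128685654-128733579) stood at 112 ± 3.51 in 168FARN alone (SD, n = 3), at the 95.6th percentile of the 12240 tested genes with a length. Itga3 followed at 65.6 ± 1.21, Itga5 at 41.1 ± 1.00, Itgb5 at 31.5 ± 0.670, Itgav at 22.3 ± 0.249 and Itgb4 at 13.8 ± 0.470 CPM per kilobase. A wide gap separated these 6 genes from Itga1 at 1.26 and Itga6 at 0.261 CPM per kilobase. Itgb3 and Itga2 were at or near 0. The libraries of neighbouring genes in this order did not overlap, except those of Itgb3 and Itga2.

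In LLC1 alone the order had the same head and another middle. Itgb1 stood at 222 ± 11.3 CPM per kilobase and Itga3 at 56.6 ± 1.61. Itgb5 at 37.0 ± 1.00 and Itga6 at 36.9 ± 4.10 overlapped, and Itga5 at 24.1 ± 0.535 and Itgav at 14.9 ± 2.33 followed. Itga1 stood at 1.56, Itga2 at 0.119 and Itgb4 at 0.0327 CPM per kilobase, with Itgb3 near 0. Dividing by the longest transcript in place of all exons put Itga6 second in LLC1 alone, at 77.3 CPM per kilobase, because its merged exons (9025 bases) are far longer than its longest transcript (4310 bases).

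**Figure D1:**
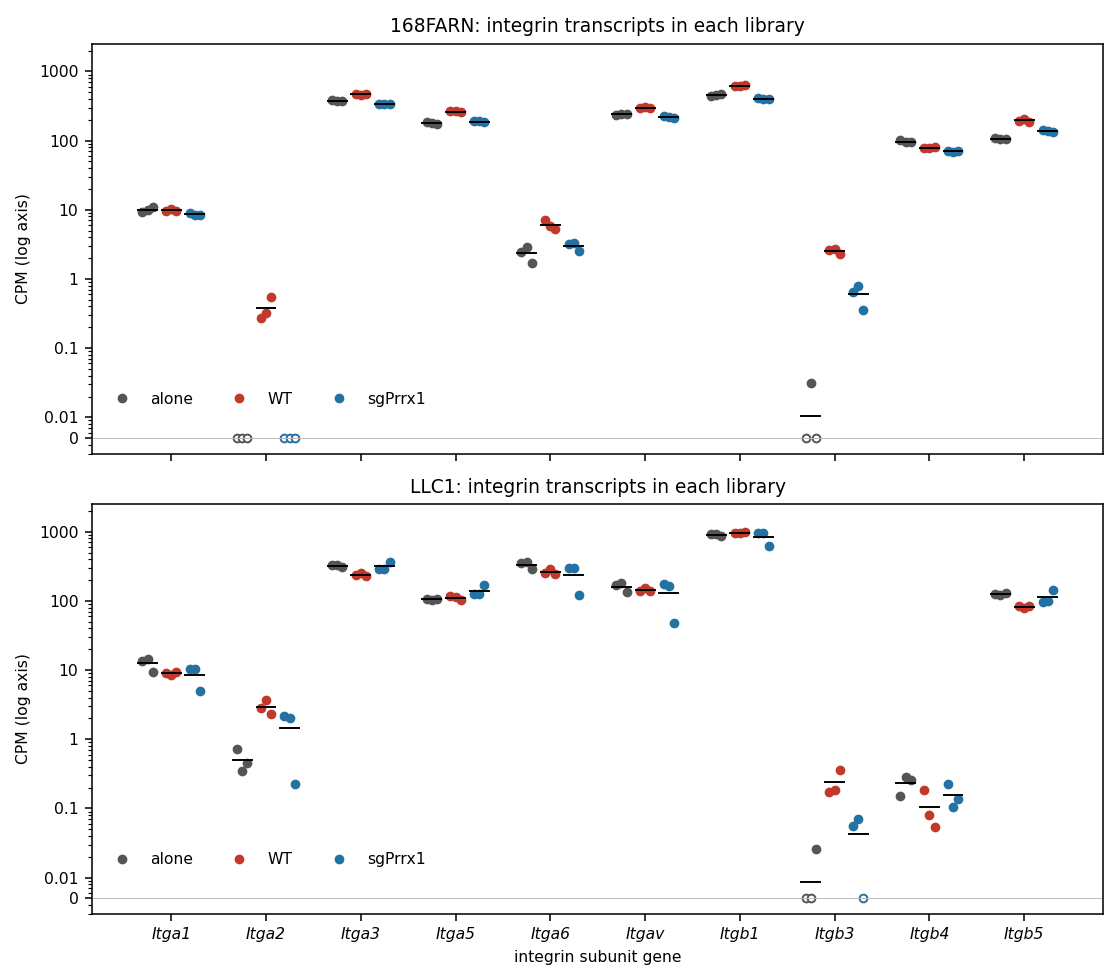
CPM of the 10 integrin subunit genes (log axis) in each of the 9 libraries of 168FARN (top) and LLC1 (bottom), coloured by culture; black lines are group means and open circles on the line marked 0 are libraries without a count. In 168FARN the WT libraries lie highest for 8 of the 10 genes by group mean, and in LLC1 the third sgPrrx1 library falls away from the other two for Itga1, Itga2, Itga6 and Itgav.

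In 168FARN, Itgb1, Itga3, Itga5, Itga6, Itgav and Itgb5 were higher with WT fibroblasts than alone, Itgb4 was lower and Itga1 was not called. These are 6 higher and 1 lower of the 8 members other than Itga2 and Itgb3, where 64.1% of all tested genes were called, 33.4% higher and 30.7% lower. All 8 were lower with sgPrrx1 fibroblasts than with WT fibroblasts, where 60% of genes were called and 33.1% were lower. Itga2 and Itgb3 were highest with WT fibroblasts too, but the filter on low counts kept them only through coculture libraries (Itga2 through WT, Itgb3 through WT and sgPrrx1), so that their differences from cells grown alone are given as values. Itgb1, Itga3 and Itgav with sgPrrx1 fibroblasts lay a little below the level of cells grown alone, Itgb5 and Itgb3 lay between both, and Itgb4 was lowest there. The changes of the abundant genes were modest, from 23.9% for Itga3 to 84.5% for Itgb5 in the rise with WT fibroblasts, and the groups did not overlap.

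The chains of the fibronectin receptor changed as follows in 168FARN. Itgb1 was at 444, 458 and 473 CPM alone, at 607, 619 and 639 CPM with WT fibroblasts and at 409, 402 and 403 CPM with sgPrrx1 fibroblasts. Every WT library was above every other library, and the sgPrrx1 libraries were below those of cells grown alone. Itgb1 rose by 35.6% with WT fibroblasts (log2 fold change 0.44 ± 0.027 SE, edgeR adjusted p = 1.38e-07) and was 34.9% down, a log2 fold change of -0.62 ± 0.028, in sgPrrx1 against WT cocultures (edgeR adjusted p = 2.09e-08). Against cells grown alone, Itgb1 fell by 11.7% with sgPrrx1 fibroblasts (edgeR adjusted p = 0.000273). Itga5 (chr15:103344286-103366791), the α5 chain, was at 184, 181 and 175 CPM alone, at 267, 265 and 255 CPM with WT fibroblasts and at 189, 189 and 187 CPM with sgPrrx1 fibroblasts. The WT libraries again lay clear above, while the sgPrrx1 libraries lay just above those of cells grown alone. Itga5 rose by 45.7% with WT fibroblasts (edgeR adjusted p = 4.4e-08) and fell by 28.2% in sgPrrx1 against WT cocultures (edgeR adjusted p = 1.85e-07). Its difference between sgPrrx1 cocultures and cells grown alone, a log2 fold change of 0.07 ± 0.029, did not pass (edgeR adjusted p = 0.0827), although 4 alternative fits called it: DESeq2 (adjusted p = 0.0183), RLE scaling (0.043), the replicate block (0.0415) and voom (0.0315).

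Of the laminin receptor chains, Itga3 (chr11:95044475-95076844), the partner of β1 for laminins of the basement membrane, was at 381, 374 and 367 CPM alone, at 468, 457 and 466 CPM with WT fibroblasts and at 337, 336 and 335 CPM with sgPrrx1 fibroblasts. The 3 groups were fully separate, in the order WT, alone, sgPrrx1. Itga3 rose by 23.9% with WT fibroblasts (edgeR adjusted p = 4.01e-07), fell by 27.5% in sgPrrx1 against WT cocultures (edgeR adjusted p = 3.47e-08) and fell by 10.2% in sgPrrx1 cocultures against cells grown alone (edgeR adjusted p = 0.000168). Itga6 (chr2:71786886-71858427), the α6 chain, was a scarce transcript in 168FARN, with 119, 189 and 82 counts alone, 493, 400 and 261 counts with WT fibroblasts and 155, 197 and 150 counts with sgPrrx1 fibroblasts. Its mean was 2.36 ± 0.632 CPM alone, 6.05 ± 0.873 CPM with WT fibroblasts and 3.02 ± 0.419 CPM with sgPrrx1 fibroblasts (SD, n = 3). The WT libraries were above all others, whereas sgPrrx1 and alone overlapped. Itga6 rose 2.55-fold with WT fibroblasts (log2 fold change 1.35 ± 0.19, edgeR adjusted p = 8.49e-05) and fell by 50.2% in sgPrrx1 against WT cocultures (edgeR adjusted p = 0.00069).

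Itgb4 (chr11:115974725-116008412), the hemidesmosome chain that needs α6 as its partner, went the other way. It was at 101, 95.7 and 94.2 CPM alone, at 78.9, 78.1 and 81.1 CPM with WT fibroblasts and at 70.5, 68.3 and 71.7 CPM with sgPrrx1 fibroblasts. The libraries of cells grown alone were highest and those with sgPrrx1 fibroblasts lowest, with no overlap. Itgb4 fell by 18% with WT fibroblasts (edgeR adjusted p = 1.72e-05), by 27.5% with sgPrrx1 fibroblasts (edgeR adjusted p = 7.29e-07), and by 11.6% in sgPrrx1 against WT cocultures (edgeR adjusted p = 0.000751). The ratio of Itga6 to Itgb4, both in CPM per kilobase, was 0.0189 ± 0.00499 alone, 0.0593 ± 0.00917 with WT fibroblasts and 0.0335 ± 0.0053 with sgPrrx1 fibroblasts, so Itgb4 transcripts outnumbered those of their only alpha partner in every group of 168FARN.

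Among the αv integrins, Itgav (chr2:83722303-83806917), the alpha chain, was at 237, 239 and 242 CPM alone, at 296, 303 and 292 CPM with WT fibroblasts and at 230, 223 and 213 CPM with sgPrrx1 fibroblasts. The groups did not overlap. Itgav rose by 24% with WT fibroblasts (edgeR adjusted p = 7.03e-06), fell by 25.3% in sgPrrx1 against WT cocultures (edgeR adjusted p = 9.06e-07) and fell by 7.36% in sgPrrx1 cocultures against cells grown alone (edgeR adjusted p = 0.014). Leaving out the third sgPrrx1 library of 168FARN moved that last value to an adjusted p of 0.0566. Itgb5 (chr16:33829665-33949338), the β5 chain of the vitronectin receptor, had the largest rise of the abundant members. It was at 108, 104 and 105 CPM alone, at 195, 204 and 187 CPM with WT fibroblasts and at 142, 139 and 132 CPM with sgPrrx1 fibroblasts. The sgPrrx1 libraries lay between the other two groups without touching either. Itgb5 rose by 84.5% with WT fibroblasts (log2 fold change 0.88 ± 0.039, edgeR adjusted p = 1.08e-08) and by 30% with sgPrrx1 fibroblasts (edgeR adjusted p = 1.49e-05), and it fell by 29.5% in sgPrrx1 against WT cocultures (edgeR adjusted p = 1.08e-06).

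Itgb3 (chr11:104608000-104670476), the β3 chain, was nearly absent from 168FARN grown alone. It had 0, 2 and 0 counts there, 187, 183 and 114 counts with WT fibroblasts and 31, 48 and 21 counts with sgPrrx1 fibroblasts. The 3 groups were separate, in the order WT, sgPrrx1, alone. Against the 2 counts in cells grown alone, the ratio was 208 with WT fibroblasts (95% interval 57.2 to 1719, counting error only) and 48.4 with sgPrrx1 fibroblasts (13.0 to 405). Between the cocultures, both of which held enough counts for the filter, Itgb3 fell by 76.4% from WT to sgPrrx1 (edgeR adjusted p = 8.25e-05). Even with WT fibroblasts it remained a minor beta chain, at 0.436 ± 0.0347 CPM per kilobase against 58.1 ± 2.41 for Itgb5. The order WT, sgPrrx1, alone was also that of the summed fibroblast markers given above, and their part in the level of Itgb3 was not tested.

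The collagen receptor chains were scarce. Itga2 (chr13:114833081-114932100), the α2 chain, had 19, 22 and 27 counts with WT fibroblasts and no count in any library of cells grown alone or with sgPrrx1 fibroblasts. With 3 counts per library as the limit that a count of 0 allows, its mean of 0.380 ± 0.148 CPM with WT fibroblasts was at least 6.69-fold higher than alone, and it was at least 6.97-fold lower with sgPrrx1 fibroblasts than with WT fibroblasts. No test is given, since the WT libraries alone brought Itga2 past the filter, and between sgPrrx1 cocultures and cells grown alone there was nothing to compare. Thy1 and Itga2 had counts in the same 3 libraries of 168FARN and in no others. Of the 12 fibroblast markers, however, 9 had counts with sgPrrx1 fibroblasts and 10 in cells grown alone, where Itga2 had none. The part of fibroblast RNA in Itga2 was not tested. In bulk RNA, fewer cells of a type and less RNA per cell cannot be told apart. Itga1 (chr13:114958079-115101964), the α1 chain, was at 9.37, 9.88 and 11 CPM alone, at 9.56, 10.1 and 9.68 CPM with WT fibroblasts and at 9.09, 8.49 and 8.36 CPM with sgPrrx1 fibroblasts. The first 2 groups overlapped (edgeR adjusted p = 0.647), and the sgPrrx1 libraries lay below both. Its fall of 11.8% in sgPrrx1 against WT cocultures was close to the threshold (edgeR adjusted p = 0.0458) and passed in 6 of 18 alternative fits; the fall of 14.1% against cells grown alone (edgeR adjusted p = 0.0244) passed in 14 of 18. The first lost its call without any 1 of 168FARN alone replicate 2, WT replicates 1, 2 and 3 and sgPrrx1 replicates 2 and 3 (adjusted p from 0.0571 to 0.134), and the second without alone replicate 3 or sgPrrx1 replicate 2 or 3 (0.0685 to 0.0957).

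Over the 8 members of 168FARN other than Itga2 and Itgb3, the median log2 fold change in WT cocultures against cells grown alone was 0.37, against 0.01 over the 13540 genes tested. For sgPrrx1 against WT cocultures it was -0.47, against -0.03 over all genes, of which 26.9% were called higher and 33.1% lower. In sgPrrx1 cocultures against cells grown alone 6 of the 8 were called, 1 higher and 5 lower, where 49.7% of genes were called, 25.7% higher and 24.1% lower, and the median was -0.13 against 0.00. Among these 8, groups overlapped only for Itga1 in WT against alone, where 68.3% of all tested genes showed no overlap. They overlapped for none in sgPrrx1 against WT (66.2%) and only for Itga6 in sgPrrx1 against alone (59.4%). These comparisons share their libraries in pairs. The share of called genes was high throughout the table, with a biological coefficient of variation of 0.0728 between replicate libraries. At an added threshold of 1 on the log2 scale none of these 8 members passed in edgeR.

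**Figure D2:**
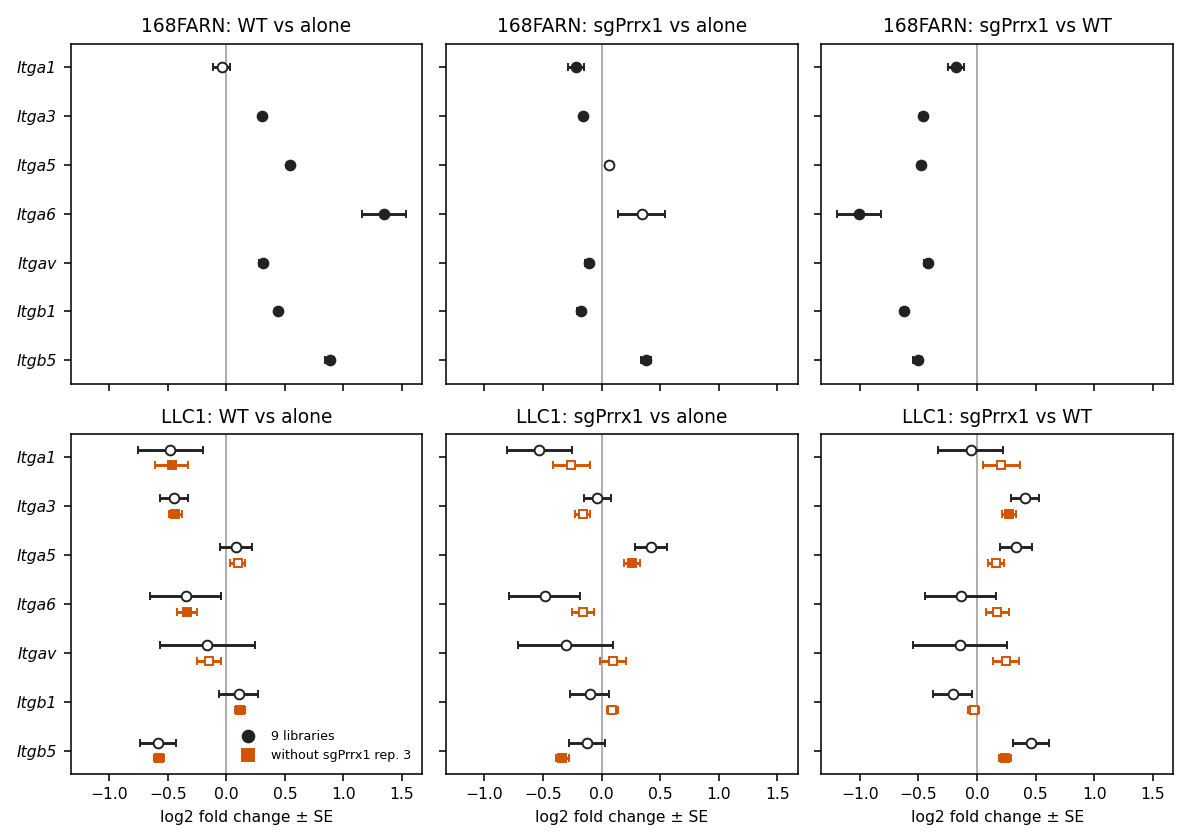
Log2 fold changes with standard errors (edgeR) for the 7 members with 100 or more counts per library on average in both lines, for the 3 comparisons in 168FARN (top) and LLC1 (bottom); filled symbols have an adjusted p under 0.05, circles are fits of all 9 libraries of a line and orange squares are the LLC1 fit without the third sgPrrx1 library. In 168FARN 6 of the 7 rose with WT fibroblasts and all 7 were lower with sgPrrx1 than with WT fibroblasts, while in LLC1 none of these 7 passed with all 9 libraries.

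In LLC1 the picture was different, and it rested on whether the third sgPrrx1 library was kept. With all 9 libraries, none of the 9 members other than Itgb3 was called in any of the 3 comparisons. Itgb3, which the filter kept only through the WT libraries, was called in WT cocultures against cells grown alone, and no member was called in the other 2 comparisons (edgeR). Unadjusted p was under 0.05 for Itga2 and Itga5 in sgPrrx1 against alone (edgeR). In sgPrrx1 against WT it was so for Itga3, Itga5 and Itgb5, and for Itgb3, whose place came from the filter. DESeq2 called Itga5 in the first of these and Itga3 in the second. The share of all genes at these levels is not given, so no weight is put on them. Without the third sgPrrx1 library, Itga2 and Itgb1 were higher and Itga1, Itga3, Itga6 and Itgb5 lower with WT fibroblasts than alone. The estimates of that comparison hardly moved, since its groups do not include the library. Their standard errors shrank for all members but Itgb4, with 0.54 for all libraries and 0.58 without the third.

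Itgb1 in LLC1 was at 918, 942 and 853 CPM alone, at 955, 961 and 1006 CPM with WT fibroblasts and at 965, 950 and 612 CPM with sgPrrx1 fibroblasts. The WT libraries lay just above those of cells grown alone, and the third sgPrrx1 library was far below everything else. The log2 fold change in WT against alone was 0.11 ± 0.17 with all libraries (edgeR adjusted p = 0.769) and 0.12 ± 0.042 without the third sgPrrx1 library (edgeR adjusted p = 0.0483). Itga5 was at 108, 103 and 105 CPM alone, at 118, 115 and 103 CPM with WT fibroblasts and at 124, 127 and 172 CPM with sgPrrx1 fibroblasts. The sgPrrx1 libraries were the highest, and the third lay well above the rest. Itga5 in sgPrrx1 cocultures against cells grown alone had a log2 fold change of 0.42 ± 0.14 (edgeR adjusted p = 0.12), which was 0.26 ± 0.068 without that library (edgeR adjusted p = 0.0233).

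Itga3 in LLC1 was at 331, 325 and 313 CPM alone, at 234, 251 and 226 CPM with WT fibroblasts and at 288, 286 and 369 CPM with sgPrrx1 fibroblasts. The WT libraries were lowest and overlapped neither other group. The log2 fold change in WT against alone was -0.45 ± 0.12 (edgeR adjusted p = 0.0516), and -0.43 ± 0.054 without the third sgPrrx1 library (edgeR adjusted p = 0.00047). In sgPrrx1 against WT cocultures it was 0.41 ± 0.12 (edgeR adjusted p = 0.289), and 0.27 ± 0.06 without that library (edgeR adjusted p = 0.0439). Itga6 was an abundant transcript here, at 350, 359 and 291 CPM alone, at 256, 285 and 246 CPM with WT fibroblasts and at 299.7, 293.9 and 120.5 CPM with sgPrrx1 fibroblasts. Its WT libraries lay below those of cells grown alone, with a log2 fold change of -0.35 ± 0.30 (edgeR adjusted p = 0.549), or -0.33 ± 0.086 without the third sgPrrx1 library (edgeR adjusted p = 0.0133). Itgb4 had 4 to 24 counts per library and passed in no comparison.

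Itgb5 in LLC1 was at 124, 121 and 128 CPM alone, at 83.3, 80.1 and 85.2 CPM with WT fibroblasts and at 97.7, 98.7 and 145 CPM with sgPrrx1 fibroblasts. The WT libraries were lowest without overlap, the opposite of their place in 168FARN. The log2 fold change in WT against alone was -0.59 ± 0.15 (edgeR adjusted p = 0.0518), and -0.57 ± 0.046 without the third sgPrrx1 library (edgeR adjusted p = 6.68e-05). With sgPrrx1 in place of WT fibroblasts it was 0.46 ± 0.15 (edgeR adjusted p = 0.332), and 0.24 ± 0.051 without that library (edgeR adjusted p = 0.0408). Itgav was at 168, 181 and 133 CPM alone, at 141, 152 and 138 CPM with WT fibroblasts and at 175, 167 and 48 CPM with sgPrrx1 fibroblasts, overlapping throughout, and passed in none of the 3 comparisons with or without that library.

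Itgb3 had 0, 0 and 2 counts in LLC1 alone, 14, 14 and 27 counts with WT fibroblasts and 6, 6 and 0 counts with sgPrrx1 fibroblasts. The WT libraries were highest in both lines. The ratio of WT to alone was 28.6 (95% interval 7.55 to 242, counting error only). Its call in that comparison is no support for a difference, since the WT libraries alone brought it past the filter, and it was made in only 6 of 17 alternative fits. Itga2 was at 0.711, 0.344 and 0.449 CPM alone, at 2.87, 3.71 and 2.34 CPM with WT fibroblasts and at 2.15, 2 and 0.223 CPM with sgPrrx1 fibroblasts. Its WT libraries lay above those of cells grown alone by a log2 fold change of 2.56 ± 0.69 (edgeR adjusted p = 0.0559), or 2.58 ± 0.28 without the third sgPrrx1 library (edgeR adjusted p = 0.000254). Of the 12 fibroblast markers, 9 were tested in LLC1, and with WT fibroblasts Col1a1, Col1a2 and Dcn were higher and Col3a1, which makes up most of the sum, and Pdgfrb lower (edgeR). Their part in the level of Itga2 was not tested. Itga1 was at 13.7, 14.5 and 9.24 CPM alone, at 9.04, 8.48 and 9.32 CPM with WT fibroblasts and at 10.4, 10.3 and 5.07 CPM with sgPrrx1 fibroblasts. Alone and WT overlapped through the third library of cells grown alone, and the log2 fold change of -0.48 ± 0.28 did not pass with all libraries (edgeR adjusted p = 0.339). It passed in 3 of 18 alternative fits: without the third sgPrrx1 library (edgeR adjusted p = 0.0276), with only the 2 groups compared (edgeR adjusted p = 0.0436) and with voom and quality weights (limma adjusted p = 0.000633).

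With all 9 libraries of LLC1, 1 of 10 members, Itgb3, was called in WT against alone, where 8.83% of the 12873 tested genes were (4.25% higher, 4.58% lower), none in sgPrrx1 against alone, where 4.32% were (2.01% higher, 2.31% lower), and none in sgPrrx1 against WT, where 0.0544% were, all of them lower. Without the third sgPrrx1 library, 6 of the 9 members other than Itgb3 passed in WT against alone, 2 of them higher and 4 lower, where 44.2% of genes did (22% higher, 22.2% lower). In sgPrrx1 against alone 3 passed, Itga2 and Itga5 higher and Itgb5 lower, where 26.7% of genes did (12.5% higher, 14.2% lower). In the last comparison Itga3 and Itgb5 were higher, where 5.69% of genes passed (2.94% higher, 2.75% lower). Among the 9 members other than Itgb3 and with all libraries, groups did not overlap for Itga2, Itga3, Itga6, Itgb1 and Itgb5 in WT against alone (53.2% of all genes). They did not overlap for Itga5 in sgPrrx1 against alone (32.4%) and for Itga2, Itga3, Itga5 and Itgb5 in sgPrrx1 against WT (23.6%). Without the third sgPrrx1 library, overlap with cells grown alone was left only for Itga1, Itga6, Itgav and Itgb4, and with WT only for Itgb1 and Itgb4. Groups of 2 libraries separate more easily than groups of 3, and the share of all genes is not given for them. The median log2 fold changes of the 9 members other than Itgb3 were -0.35, -0.13 and -0.06 in WT against alone, sgPrrx1 against alone and sgPrrx1 against WT, beside -0.02, -0.01 and 0.02 over all genes. Without the third sgPrrx1 library they were -0.33, -0.16 and 0.21, so the last changed sign. Itgb4 is among these 9, with 4 to 24 counts per library. It passed the filter only with the libraries of cells grown alone, where its mean was highest.

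In the third sgPrrx1 library of LLC1, members lay on either side of the other two libraries. Itga1, Itga2, Itga6, Itgav and Itgb1, whose longest transcripts hold 43.5% to 48.9% GC, were below the mean of the other two libraries, from 0.640 of it for Itgb1 to 0.107 for Itga2. Itga3, Itga5 and Itgb5, with 57.5% to 57.9% GC, were above it, at 1.29, 1.37 and 1.48 of that mean. In 5 equal bins of all genes by GC content, the median log2 difference went from -0.68 in the bin of lowest GC to 0.60 in the bin of highest GC. Itgb4 went against this, with 60.0% GC, 121 counts over the 9 libraries and 0.825 of the mean, and Itgb3, with 51.9% GC and 69 counts over the 9 libraries, had no count in the third library. The longest transcripts of the first 5 genes measure 3815 to 7054 bases and those of Itga3, Itga5 and Itgb5 3090 to 4861 bases. GC content and length both moved with the difference over all genes, and the part of either in the member values was not tested.

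**Figure D3:**
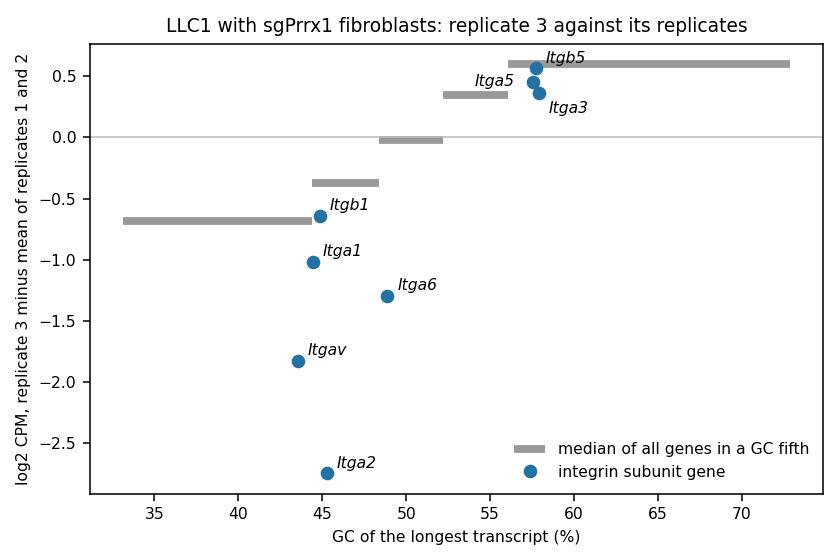
Log2 CPM of the third sgPrrx1 library of LLC1 minus the mean of the other two (vertical axis) against the GC content of the longest transcript (horizontal axis) for the 8 members other than Itgb3 and Itgb4; grey bars are the median over all genes in each of 5 equal bins of GC content. The 5 members under 49% GC lie below 0 and the 3 members above 57% GC lie above it.

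The difference between the lines was tested directly in 1 fit of all 18 libraries. The change with WT fibroblasts was lower in LLC1 than in 168FARN, with a difference of the log2 fold changes (LLC1 minus 168FARN) of -0.75 for Itga3, -0.46 for Itga5, -1.69 for Itga6 and -1.47 for Itgb5, and these 4 of the 8 members other than Itga2 and Itgb3 passed (edgeR adjusted p = 7.55e-05, 0.0146, 0.00483 and 3.55e-06), where 29.4% of 14369 genes did, 13.7% with a positive and 15.8% with a negative difference. For Itgb5 the groups were separate in both lines and pointed in opposite directions. The change from WT to sgPrrx1 fibroblasts was higher in LLC1 for Itga3 by 0.85, for Itga5 by 0.79 and for Itgb5 by 0.94 (edgeR adjusted p = 5.89e-05, 0.000583 and 0.00044), 3 of these 8 members where 19.3% of genes passed, 11% positive and 8.25% negative. For sgPrrx1 fibroblasts against cells grown alone, Itgb5 alone passed of these 8 members, where 12.1% of genes did, 5.44% positive and 6.68% negative (log2 difference -0.53, edgeR adjusted p = 0.0308), and it passed in 12 of 24 alternative fits. Without the third sgPrrx1 library of LLC1 the change with WT fibroblasts differed for 6 of the 8, all lower in LLC1, where 52.5% of genes differed (26.5% positive, 26% negative). The change from WT to sgPrrx1 fibroblasts differed for 6 of the 8, all higher in LLC1, where 44.5% of genes differed (22.8% positive, 21.7% negative). For sgPrrx1 fibroblasts against cells grown alone Itgb1 was higher and Itgb5 lower, where 28% of genes differed (14.1% positive, 13.8% negative).

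Grown alone, the lines differed in opposite directions in their α6 and β4 transcripts. LLC1 had Itga6 at 333 ± 37.0 CPM and 168FARN at 2.36 ± 0.632, a log2 difference of 7.24 ± 0.36 (edgeR adjusted p = 9.63e-11). Itgb4 was the reverse, at 0.230 ± 0.0703 CPM in LLC1 and 96.8 ± 3.30 in 168FARN, a log2 difference of -8.60 ± 0.25 (edgeR adjusted p = 3.82e-13). Each line thus held abundant transcripts of 1 chain of the α6β4 pair and few of the other. LLC1 was also higher in Itgb1 by 1.09 ± 0.13 (edgeR adjusted p = 2.2e-06) and in Itgb5 by 0.34 ± 0.10 (edgeR adjusted p = 0.00911, or 0.0672 with the replicate block), and it was lower in Itga5, with a log2 difference of -0.66 ± 0.092 (edgeR adjusted p = 1.03e-05). Itga2, without a count in 168FARN alone, had 57, 28 and 35 counts in LLC1 alone. Of the 8 members other than Itga2 and Itgb3, 5 passed, 3 higher and 2 lower in LLC1, where 70.9% of genes did (33.2% higher, 37.7% lower). Without the third sgPrrx1 library all 8 passed, with Itga1 added on the higher side and Itga3 and Itgav on the lower side, where 81.6% of genes did (38.8% higher, 42.9% lower).

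Shares of the alpha and beta transcripts per kilobase put the members side by side with the other subunits. In 168FARN alone, Itga3 made up 39.8% ± 0.181 of the alpha transcripts, Itga5 24.9% ± 0.288, Itga7, a laminin receptor chain of muscle outside the 10 genes, 16.7% ± 0.0571 and Itgav 13.5% ± 0.339. In LLC1 alone, Itga3 made up 38.1% ± 1.08, Itga6 24.8% ± 1.5 and Itga5 16.2% ± 0.872. The alpha sum of 168FARN was 165 ± 2.29 CPM per kilobase alone, 209 ± 3.36 with WT fibroblasts and 153 ± 1.58 with sgPrrx1 fibroblasts, and the share of Itga3 was 38.5% to 39.8%. The share of Itga5 was 24.9% ± 0.288 alone, 28.6% ± 0.24 with WT fibroblasts and 28.1% ± 0.102 with sgPrrx1 fibroblasts. The beta sum of 168FARN was 182 ± 2.03, 245 ± 2.38 and 182 ± 1.86 CPM per kilobase. Itgb1 made up 61.8% ± 1.28, 62.3% ± 1.28 and 54.4% ± 0.24 of it, Itgb5 17.3% ± 0.502, 23.7% ± 0.967 and 22.4% ± 0.623, and Itgb4 7.59% ± 0.332, 4.63% ± 0.0956 and 5.49% ± 0.15. Itgb7, a leukocyte beta chain outside the 10 genes, made up 11.8% ± 0.585, 8.61% ± 0.516 and 16.8% ± 0.364. In LLC1 Itgb1 made up 73.1% ± 1.86 of the beta transcripts alone, 76.4% ± 0.664 with WT fibroblasts and 65.6% ± 12.1 with sgPrrx1 fibroblasts, the last being wide because of the third library.

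**Figure D4:**
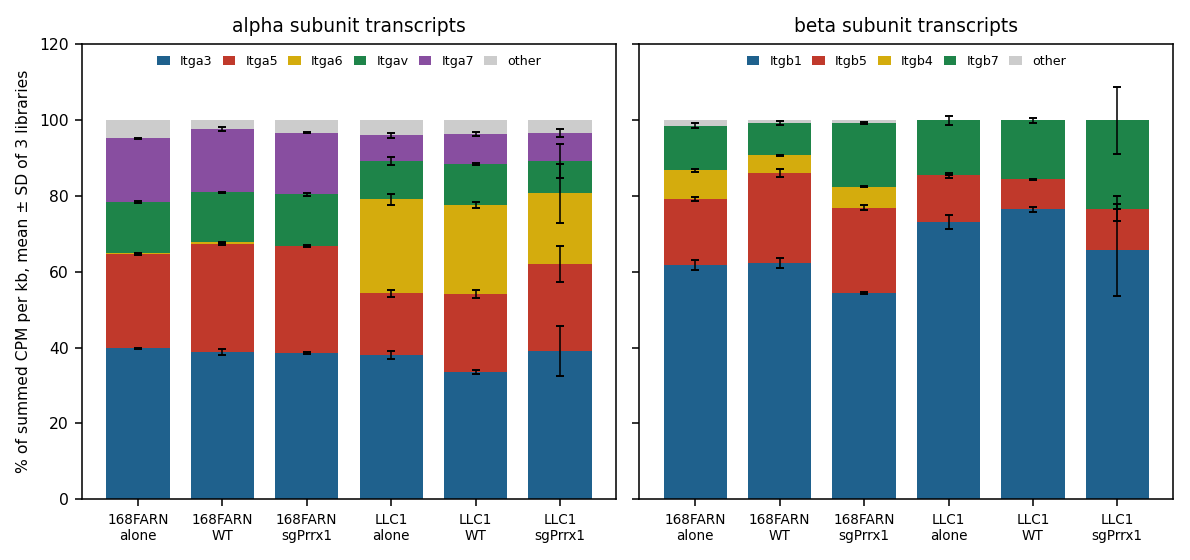
Shares of the summed CPM per kilobase of 18 alpha (left) and 9 beta (right) subunit genes in the 6 groups, as stacked means of 3 libraries with the SD drawn at the top of each segment. Itga6 fills 24.8% of the alpha transcripts of LLC1 alone and is barely visible in 168FARN, Itgb4 is seen only in 168FARN, and the long bars of LLC1 with sgPrrx1 fibroblasts come with the third library.

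Ratios of 2 alpha partners to Itgb1 are given as values, without a test. In 168FARN the ratio of Itga5 to Itgb1, in CPM per kilobase, was 0.366 ± 0.0202 alone, 0.393 ± 0.0196 with WT fibroblasts and 0.434 ± 0.00395 with sgPrrx1 fibroblasts, and alone and WT overlapped. The ratio of Itga3 to Itgb1 was 0.584 ± 0.0290, 0.533 ± 0.0159 and 0.594 ± 0.00347, and alone and sgPrrx1 overlapped. Per kilobase, Itgav stood at 0.709 ± 0.0212 of Itgb5 alone, 0.477 ± 0.0114 with WT fibroblasts and 0.505 ± 0.00334 with sgPrrx1 fibroblasts. With the longest transcript as the length, Itgav and Itgb5 were nearly equal in 168FARN alone, at 34.0 and 34.2 CPM per kilobase, and stood at 42.1 and 63.2 with WT fibroblasts and at 31.5 and 44.5 with sgPrrx1 fibroblasts. In LLC1 alone the ratios of Itga5 and Itga3 to Itgb1 were 0.109 ± 0.00613 and 0.256 ± 0.00801.

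The members' surroundings in the pathway were followed through lists of genes. Of the 17 other integrin subunits, 8 were tested in 168FARN. With WT fibroblasts 1 of them, Itga7, rose (117 to 149 CPM, log2 fold change 0.34 ± 0.037, edgeR adjusted p = 1.05e-05) and 4 fell, among them Itga8, the chain of a nephronectin receptor (31.5 to 14.8 CPM, edgeR adjusted p = 1.25e-08), and Itgb2, the leukocyte β2 chain (8.52 to 4.2 CPM, edgeR adjusted p = 8.76e-06), where 33.4% of all genes were called higher and 30.7% lower. The median over the 8 was -0.50, against 0.01 over all genes. In sgPrrx1 against WT cocultures 3 of them rose and 1 fell, where 26.9% of all genes were higher and 33.1% lower. Itgb7 was the most abundant of those that rose, from 57.8 to 84.1 CPM (log2 fold change 0.54 ± 0.042, edgeR adjusted p = 1.01e-06). In LLC1, 7 of the 17 were tested and 1 fell with WT fibroblasts: Itga10, a collagen receptor chain, went from 6.57 to 3.19 CPM (edgeR adjusted p = 0.00609), where 4.58% of all genes were lower. With the third sgPrrx1 library left out, 8 were tested and 3 were lower, where 22.2% of all genes were.

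Of 24 matrix ligands of integrins, 21 were tested in 168FARN. With WT fibroblasts 12 were higher and 8 lower, where 33.4% and 30.7% of all genes were, with a median log2 fold change of 0.30 against 0.01 over all genes. From WT to sgPrrx1 cocultures 2 were higher and 18 lower, where 26.9% and 33.1% of all genes were, with a median of -0.53 against -0.03. Fn1, which encodes fibronectin and was named after its values were seen, was at 4769, 5263 and 2688 CPM on average in the 3 groups. Tnc (tenascin C) and Postn (periostin) had no count in 168FARN alone and stood at 29.4 and 22.1 CPM with WT fibroblasts, and at 1.07 and 0.0223 CPM with sgPrrx1 fibroblasts. The filter on low counts kept both only through coculture libraries, Postn only through those with WT fibroblasts. The counts and medians of the ligand list above include both, so they are descriptions and no support for a difference. Col1a2, a collagen I chain, was at 0.103, 148 and 12.9 CPM and Nid1, the basement membrane protein nidogen, at 0.198, 30.1 and 1.80 CPM. Such matrix genes are also products of fibroblasts, and Col1a2 and Postn are in the fibroblast marker list whose sums are given above; the part of fibroblast RNA was not tested. In LLC1, 18 of the 24 were tested, 5 were higher and 5 lower with WT fibroblasts, where 4.25% and 4.58% of all genes were, and Col1a1 and Col1a2 were the 2 that were lower in sgPrrx1 against WT cocultures, where 0.0544% of all genes were (edgeR adjusted p = 0.0054 and 0.00361). With the replicate block Col1a2 kept its call in sgPrrx1 against WT cocultures and Col1a1 lost it. Without the third sgPrrx1 library 5 ligands were higher and 12 lower with WT fibroblasts, where 22% and 22.2% of all genes were, and 4 were higher and 4 lower in sgPrrx1 against WT cocultures, where 2.94% and 2.75% of all genes were.

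Of 28 adaptors and kinases at the inner face of integrins, 27 were tested in 168FARN. With WT fibroblasts 21 were higher and 4 lower, where 33.4% and 30.7% of all genes were, with a median log2 fold change of 0.23 against 0.01 over all genes. The largest changes were those of Lims2, a partner of integrin-linked kinase (8.30 to 17.3 CPM, edgeR adjusted p = 3.08e-08), Tns3, a tensin that binds beta chains (132 to 238 CPM, edgeR adjusted p = 5.26e-10), Zyx, the focal adhesion protein zyxin (138 to 234 CPM, edgeR adjusted p = 3.12e-06), and Tln1, the talin that activates integrins (169 to 258 CPM, edgeR adjusted p = 3.14e-07). In sgPrrx1 against WT cocultures 2 were higher and 22 lower, where 26.9% and 33.1% of all genes were, with a median of -0.24 against -0.03. Itgb1bp1, which binds the tail of β1 and limits its activation, was one of the 2 (56.4 to 90.0 CPM, edgeR adjusted p = 5.27e-08), while Vcl, the actin linker vinculin, was lower (221 to 152 CPM, edgeR adjusted p = 6.45e-08). In LLC1, 1 of 27 was higher and 2 lower with WT fibroblasts, where 4.25% and 4.58% of all genes were; the lower ones were Parva, an actin-binding partner of integrin-linked kinase (165 to 124 CPM, edgeR adjusted p = 0.0135), and Tln2 (69.6 to 43.5 CPM, edgeR adjusted p = 0.0424). When the third sgPrrx1 library was left out, 5 were higher and 6 lower, where 22% and 22.2% of all genes were.

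The hemidesmosome list holds 6 genes, Itga6 and Itgb4 among them. In 168FARN with WT fibroblasts 4 were higher and 2 lower, where 64.1% of all genes were called. Plec, the linker of β4 to keratin, went from 447 to 580 CPM (edgeR adjusted p = 1.86e-06) and Cd151, a tetraspanin partner of laminin-binding integrins, from 515 to 406 CPM (edgeR adjusted p = 5.77e-07). Between sgPrrx1 and WT cocultures 1, Cd151, was higher and 3 were lower, where 60% of all genes were called. In LLC1, 1 of the 6 was called with WT fibroblasts (8.83% of all genes), or 3 without the third sgPrrx1 library (44.2% of all genes), and none in the other 2 comparisons with edgeR in either fit. With the replicate block none of the 6 was called in any comparison of LLC1.

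Among members with a mean of 100 or more counts, the widest range of group mean log2 CPM was that of Itga6 in 168FARN and that of Itga2 in LLC1. Over the 9 libraries of 168FARN, the genes whose log2 CPM followed Itga6 most closely were 5031439G07Rik, Sptan1, which encodes a spectrin, and Trim45, a ubiquitin ligase of the tripartite motif family, with Pearson r of 0.98, 0.98 and 0.98. As many as 536 of 10876 genes had r above 0.9. Over the 9 libraries of LLC1, Dclk1, a doublecortin-like kinase, Slc16a6, a monocarboxylate transporter, and Anapc4, a subunit of the anaphase promoting complex, followed Itga2 most closely, with r of 0.98, 0.98 and 0.98, and 156 of 11003 genes had r above 0.9. The points share libraries, depth and group means, and in LLC1 also the third sgPrrx1 library, so these values are descriptions.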

How the data were processed

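RNA of sorted cancer cells was sequenced as paired reads of 100 bp from TruSeq v2 libraries. According to the methods, the authors trimmed reads with Trimmomatic, aligned them to mm10 with STAR and counted them per gene with HTSeq. The deposited values are whole-number counts. The methods also name a batch correction by ComBat-seq, after a step on human fibroblast data, and do not state whether it was applied to these counts. The strand setting is not given in the sources used here, so antisense partners cannot be separated. Counts were tested with edgeR 4.0.16 in R 4.3.3 (filterByExpr, TMM scaling, quasi-likelihood test, Benjamini-Hochberg adjustment over all genes tested, threshold 0.05) on the 9 libraries of each line, and on all 18 for differences between lines. CPM were counts over the library total times its TMM factor. Genes were compared with each other per kilobase of merged exons; lengths came from an older build (NCBIM37), whereas coordinates and promoters are RefSeq GRCm38.p6. The alternatives used DESeq2 1.42.0 and limma 3.58.1 (voom), other scalings, filters and groups, a replicate block and the omission of each library. The fits were tested on simulated data.

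The members and gene lists were chosen with earlier results of these data known. All 10 members are named. From a list, at most 4 called genes with the largest change and a mean of 100 or more counts are named, and Fn1 in addition; genes most alike are the 3 with the highest r. Replicates of a group differed by more than sampling noise. Intervals and floors cover counting error only.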

Additional observations from a re-analysis of the deposited data

Results flagged for a closer look

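The values below are differences between the log2 fold changes of the 2 lines (LLC1 minus 168FARN), each tested in 1 fit of all 18 libraries with edgeR. They are listed because that difference itself passed. For WT fibroblasts against cells grown alone it was -0.75 for Itga3, -0.46 for Itga5, -1.69 for Itga6 and -1.47 for Itgb5. For sgPrrx1 against WT fibroblasts it was 0.85 for Itga3, 0.79 for Itga5 and 0.94 for Itgb5. For sgPrrx1 fibroblasts against cells grown alone it was -0.53 for Itgb5. The line, the kind of fibroblast and the count table change together, and their parts cannot be told apart.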

How the results depend on the processing

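In 168FARN the number of members called moved by more than 1.5 times only under an added threshold of 1 on the log2 fold change, to 2 in WT against alone (9 without it), 1 in sgPrrx1 against alone (7) and 2 in sgPrrx1 against WT (10). The members left were Itga2, Itgb3 or both, which the filter on low counts kept only through coculture libraries. In LLC1, WT against alone (1 member) gave 4 with DESeq2, 3 with RLE scaling, 3 with no scaling factors, 0 with no filter beyond 1 count, 0 with at least 10 counts in every library, 6 with only the 2 groups compared, 0 with the added threshold of 1 and 7 with voom and quality weights. Leaving out 1 library gave 0 to 7; the 7 came without the third sgPrrx1 library and the other 8 omissions gave 0. In sgPrrx1 against alone (0 members) DESeq2 gave 1, voom 7 and leaving out 1 library 0 to 3. In sgPrrx1 against WT (0 members) DESeq2 gave 1, voom 5 and leaving out 1 library 0 to 2. The highest of each came without the third sgPrrx1 library. Members whose change differed between the lines numbered 9 with voom for WT against alone (4 before, 4 to 7 with 1 library left out), 8 for sgPrrx1 against WT (3 before, 3 to 7) and 3 for sgPrrx1 against alone (1 before, 0 with RLE scaling, 0 to 2 with 1 library left out). In the last, Itgb5 lost its call without any of 11 libraries: the 3 of 168FARN alone, WT 1 and 2 and sgPrrx1 1 and 2 of 168FARN, and alone 1 and 3 and sgPrrx1 1 and 2 of LLC1. With voom, sgPrrx1 against WT in LLC1 turned to 0.19 for Itga6 (adjusted p = 0.0499) and 0.26 for Itgav (adjusted p = 0.0354). Itga1 in 168FARN, sgPrrx1 against WT, lost its call with DESeq2 (adjusted p = 0.091), RLE scaling (0.0549), no filter beyond 1 count (0.06), only the 2 groups compared (0.0716), the replicate block (0.0699), the added threshold and 6 of the omissions. Deviations of libraries with the same replicate number correlated by over 0.1 for 2 of 9 pairs of groups in 168FARN (-0.06 to 0.18) and 7 of 9 in LLC1 (-0.15 to 0.63). Libraries were not treated as paired in the main fits. For LLC1 these correlations do not justify that choice, and a shared factor there remains possible. The replicate block left 9, 9 and 8 members called in 168FARN (WT against alone, sgPrrx1 against WT without Itga1, sgPrrx1 against alone with Itga5 added) and 1, 0 and 0 in LLC1, where the 1 was Itgb5 (adjusted p = 0.0481) in place of Itgb3 (0.0673); grown alone, the lines then differed in 5 members in place of 6, without Itgb5. The share of all genes called is not given beside these member counts, and it moved with the fit too. In LLC1 WT against alone it was 8.83% with 9 libraries and 44.2% without the third sgPrrx1 library. The member counts of this section therefore describe the settings and are no result about the members. All these counts include Itga2 and Itgb3. The cause was not tested for any of these.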
